A study of Mus musculus with 6 samples.

Results

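A set of 10 genes that mark the cells wrapped around brain blood vessels were followed in the right hippocampus of mice after narrowing of both carotid arteries: 4 pericyte genes (Pdgfrb, Rgs5, Abcc9 and Vtn) and 6 smooth muscle genes (Acta2, Myh11, Tagln, Cnn1, Des and Myl9). They were matched by symbol, and all 10 were found among the 54752 genes counted. All 10 also passed the filter on low counts, which kept 18617 genes for testing. The animals were wild-type male mice of strain C57BL/6 in the labels, given as C57BL/6 J in the paper. The labels carry a time of 14 weeks. The BCAS group underwent bilateral carotid artery stenosis, in which a small metal coil is placed around each common carotid artery, the tighter coil on the right. The Sham group went through the surgery without coils, and all hippocampi were taken 3 weeks later. Each group held 3 mice, with 1 RNA-seq library per mouse, so p-values measure the spread between these mice. As a model, the operation lowers blood flow on both sides of the brain, and each library holds RNA from every cell type of 1 hippocampus.

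Mural cells are the contractile and supporting cells on the outside of the endothelial tube. Pericytes sit on capillaries within the basement membrane and are kept there by PDGF-B, which endothelial cells release and which binds the receptor encoded by Pdgfrb. Arterioles carry rings of smooth muscle cells, whose contractile proteins (smooth muscle actin and myosin, calponin, transgelin) set vessel width and whose genes are driven largely by serum response factor (SRF) with myocardin-family cofactors at a promoter element called the CArG box. The 2 classes share genes: Pdgfrb, Rgs5 and Abcc9 are found in some smooth muscle cells, desmin is found in pericytes, and pericytes at the arteriolar end of capillaries contain smooth muscle actin.

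Library totals lay between 29652456 and 35607098 counts. Expression is given as CPM, the count of a gene relative to the library size after TMM scaling, and 3 counts correspond to between 0.0875 and 0.0995 CPM. Before any comparison, Sham replicate 3 stood apart from the other Sham mice in the smooth muscle genes. It was the highest Sham library for 6 of 6 smooth muscle genes and the highest of all 6 libraries for 4 of 6, beside 39.1% and 22.3% of all genes tested. In lists described below, it was also the highest Sham library for 9 of 10 fibroblast, 9 of 12 further pericyte and 9 of 14 further smooth muscle genes. For microglial markers it was so in 5 of 10, and for astrocyte markers in 1 of 7. Being high in Sham replicate 3 was thus not particular to the smooth muscle genes. Its level was 2.66 times the mean of Sham replicates 1 and 2 for Acta2, 1.96 times for Myh11, 3.40 times for Cnn1 and 1.92 times for Myl9, and 1.66 times for Des and 1.53 times for Tagln. A ratio of at least 1.8, a limit chosen after these values were seen, was reached by 158 of 15631 genes with a mean of at least 1 CPM (1.01%). The fold changes of the smooth muscle genes are therefore given with and without that library. Because it was the highest Sham library for each of them, leaving it out raises each of their fold changes.

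**Figure D1:**
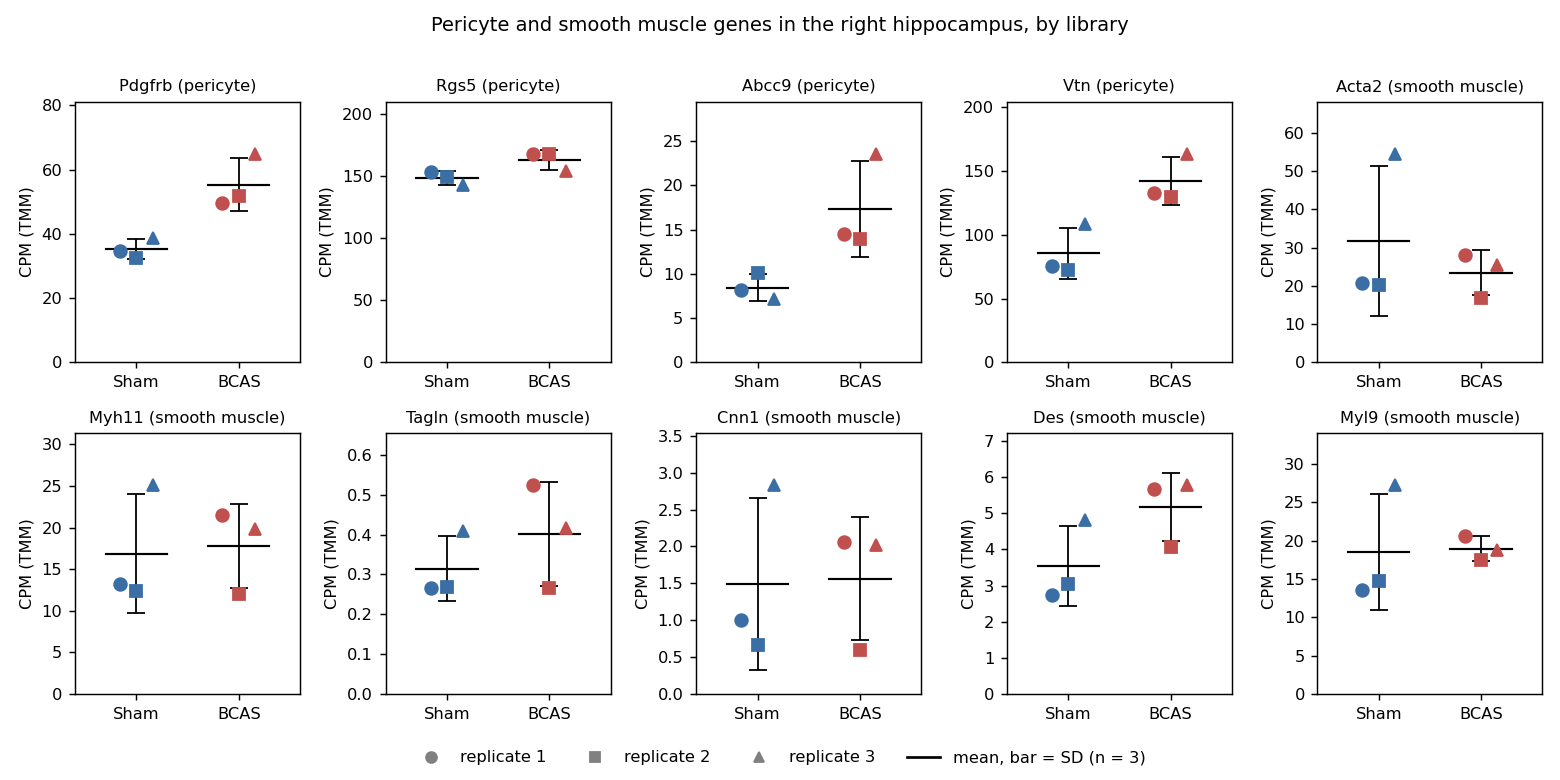
CPM of each of the 10 genes (vertical axes, starting at 0) in the 3 Sham and 3 BCAS libraries, with the group mean and SD (n = 3) as black lines and the replicate number as the symbol. Pdgfrb, Abcc9 and Vtn separate the groups clearly, while in Acta2, Myh11, Cnn1 and Myl9 the highest point is Sham replicate 3.

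Among the pericyte genes, 3 of 4 were higher in BCAS at an adjusted p under 0.05 and 0 of 4 were lower. Of all genes tested, 18.0% were called higher and 13.2% lower. Over all 10 members the called share, 3 of 10, was close to the 31.3% of tested genes called in either direction. All BCAS libraries lay above all Sham libraries for 4 of the 10, the 4 pericyte genes, and for 25.3% of tested genes. Pdgfrb, Abcc9 and Vtn rose, by between 1.57-fold and 2.05-fold, and Rgs5 did not pass the test. The median log2 fold change of the 4 genes was 0.69, beside 0.02 over all genes tested. In whole tissue, a change in the number of cells of a type and a change in RNA per cell cannot be told apart.

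Pdgfrb encodes the PDGF receptor beta chain, the receptor that recruits and holds pericytes. The gene is ENSMUSG00000024620.11, on the plus strand of chromosome 18 from 61045150 to 61085061 in mm10, and its 24 merged exons overlap no exon of another gene. In CPM it measured 34.5, 32.5 and 38.7 in Sham replicates 1, 2 and 3, and 49.5, 51.7 and 64.9 in BCAS replicates 1, 2 and 3. Each BCAS library was above each Sham library, with BCAS replicate 3 the highest. Group means were 35.2 ± 3.14 CPM in Sham and 55.4 ± 8.31 CPM in BCAS (SD, n = 3 mice each). On the log2 scale Pdgfrb rose by 0.65 (SE 0.12; edgeR adjusted p = 0.00388).

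Abcc9 encodes SUR2, the regulatory subunit of the ATP-sensitive potassium channel of mural cells, which opens when energy is short and relaxes the cell. It lies on the minus strand of chromosome 6 from 142587862 to 142702315 (ENSMUSG00000030249.15), with 1.89% of its exonic bases shared with another gene that had 0 counts in every library. Its levels were 8.18, 10.1 and 7.11 CPM in Sham and 14.5, 13.9 and 23.5 CPM in BCAS, in replicate order. The groups did not overlap, and BCAS replicate 3 was well above the other BCAS mice. The mean rose 2.05-fold, from 8.45 ± 1.49 to 17.3 ± 5.39 CPM (SD, n = 3 each; log2 fold change 1.04, SE 0.22, edgeR adjusted p = 0.00849). Abcc9 was the 1 gene of the 10 past both an adjusted p of 0.05 and an absolute log2 fold change of 1, a pair of limits that 8.47% of tested genes met on the higher side. Without BCAS replicate 3 its log2 fold change was 0.74, and without Sham replicate 3 it was 0.92, so that no member passed both limits in those 2 cases, though Abcc9 stayed under an adjusted p of 0.05.

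Vtn encodes vitronectin, an adhesive matrix and plasma protein that binds integrins and that brain pericytes produce in quantity. It is a compact gene of 6 merged exons on the plus strand of chromosome 11, from 78499091 to 78502324 (ENSMUSG00000017344.4). Sham replicates 1 and 2 had 75.4 and 72.5 CPM and Sham replicate 3 had 108.2 CPM, while the BCAS libraries had 132.5, 129.6 and 163.1 CPM. The highest Sham library was still below the lowest BCAS library. The mean was 85.4 ± 19.9 CPM in Sham and 141.8 ± 18.5 CPM in BCAS (SD, n = 3 each), 1.66-fold higher (log2 fold change 0.73, SE 0.16, edgeR adjusted p = 0.00868). Vtn is also a liver transcript, and albumin (Alb) was between 1.74 and 1.77 CPM in Sham and between 1.62 and 2.34 CPM in BCAS. It was 1 of 7 listed genes of hepatocytes and blood, of which edgeR called 0, with 3 at an unadjusted p under 0.05 and a median log2 fold change of 0.50. The haemoglobin genes Hba-a1 (0.50, adjusted p = 0.0761), Hbb-bs (0.51, adjusted p = 0.0512) and Hbb-bt (0.42, adjusted p = 0.109) had all BCAS libraries above all Sham libraries, and the part of blood in the level of Vtn was not tested.

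Rgs5 encodes a regulator of G protein signalling that shortens contractile signals and is among the most abundant pericyte transcripts. The gene, ENSMUSG00000026678.10, spans chromosome 1 from 169655501 to 169695813 on the plus strand. Its values were 153.6, 148.9 and 142.9 CPM in Sham and 167.8, 167.4 and 153.9 CPM in BCAS. The groups met almost end to end, with BCAS replicate 3 barely above Sham replicate 1. The log2 fold change was 0.14 (SE 0.07), with an interval of 2 SE from -0.01 to 0.28 and an edgeR adjusted p of 0.186. Scaled by library totals instead of TMM, which moved the median of all genes from 0.02 to 0.10, it was 0.21 with an adjusted p of 0.0421. With TMM, the interval of Rgs5 ended below the fitted change of each of the other 3 pericyte genes. In BCAS replicate 3, the library highest for those 3 genes, Rgs5 was the lowest of the BCAS group.

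None of the 6 smooth muscle genes was called in either direction by edgeR, beside 31.3% of all genes tested, and 0 of the 6 had an unadjusted p under 0.05. DESeq2 likewise called 0, with 0 at an unadjusted p under 0.05, and limma-voom called 0, with 1 at an unadjusted p under 0.05. Their median log2 fold change was 0.07. It was 0.53 without Sham replicate 3, and it ran from -0.11 to 0.53 as each library was left out in turn. The 2 SE intervals below give a range of changes for each gene. They are narrower than the edgeR test at p under 0.05 implies. The interval of Des excluded 0 at an unadjusted edgeR p of 0.0607.

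Acta2 encodes the actin isoform of smooth muscle, the most used marker of arteriolar muscle. It lies on the minus strand of chromosome 19 from 34241090 to 34255336 (ENSMUSG00000035783.8) and shares no exonic base with another gene. In Sham it measured 20.8, 20.2 and 54.5 CPM, and in BCAS 28.1, 16.8 and 25.5 CPM. Sham replicate 3 was the highest library and BCAS replicate 2 the lowest, and the groups overlapped. The log2 fold change was -0.44 (SE 0.37), with an interval from -1.18 to 0.30 (edgeR adjusted p = 0.406). Without Sham replicate 3 the sign turned, to 0.19 (SE 0.21, adjusted p = 0.562).

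Myh11 encodes the heavy chain of smooth muscle myosin, the motor that pulls on that actin. The gene has 43 merged exons on the minus strand of chromosome 16, from 14194535 to 14291372 (ENSMUSG00000018830.10). It had 13.2, 12.3 and 25.1 CPM in Sham and 21.5, 12.1 and 19.9 CPM in BCAS. The libraries kept the order seen for Acta2 at both ends, with Sham replicate 3 the highest and BCAS replicate 2 the lowest. Its log2 fold change was 0.08 (SE 0.30, interval -0.52 to 0.67, edgeR adjusted p = 0.87) and 0.48 without Sham replicate 3 (adjusted p = 0.202).

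Myl9 encodes a regulatory light chain of myosin, whose phosphorylation starts contraction. It lies on the plus strand of chromosome 2 from 156775420 to 156781658 (ENSMUSG00000067818.6). The Sham values were 13.6, 14.7 and 27.2 CPM and the BCAS values 20.7, 17.4 and 18.8 CPM. All BCAS mice lay between the lower pair of Sham mice and Sham replicate 3. The log2 fold change was 0.04 (SE 0.24, interval -0.45 to 0.52, edgeR adjusted p = 0.93), and it was 0.42 without Sham replicate 3 (adjusted p = 0.0564).

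Cnn1 encodes calponin, an actin-binding protein that restrains myosin and marks mature smooth muscle. It was a rare transcript here, with 34, 22 and 97 counts in Sham and 67, 18 and 63 counts in BCAS (1.00, 0.659 and 2.83 CPM, then 2.06, 0.597 and 2.02 CPM). The gene runs on the plus strand of chromosome 9 from 22099216 to 22109630 (ENSMUSG00000001349.5). Again Sham replicate 3 was the highest and BCAS replicate 2 the lowest library. The interval of the log2 fold change was the widest of the 10 genes, from -1.14 to 1.26 around 0.06 (SE 0.60, edgeR adjusted p = 0.952). Without Sham replicate 3 the value was 0.90 (SE 0.57, adjusted p = 0.302).

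Des encodes desmin, the intermediate filament of muscle cells, which pericytes also contain. The gene is ENSMUSG00000026208.9, on the plus strand of chromosome 1 from 75360329 to 75368579. Its levels were 2.75, 3.05 and 4.81 CPM in Sham and 5.66, 4.08 and 5.77 CPM in BCAS. Only Sham replicate 3 and BCAS replicate 2 were out of order between the groups. The log2 fold change was 0.55 (SE 0.26, edgeR adjusted p = 0.136), the largest of the 6 smooth muscle genes. It was 0.83 without Sham replicate 3, with an adjusted p of 0.0477. As that library was picked for its high values in these genes, this call is not separate evidence of a rise. With Des counted among the pericyte genes instead, an alternative added after seeing the data, the class medians were 0.65 and 0.06.

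**Figure D2:**
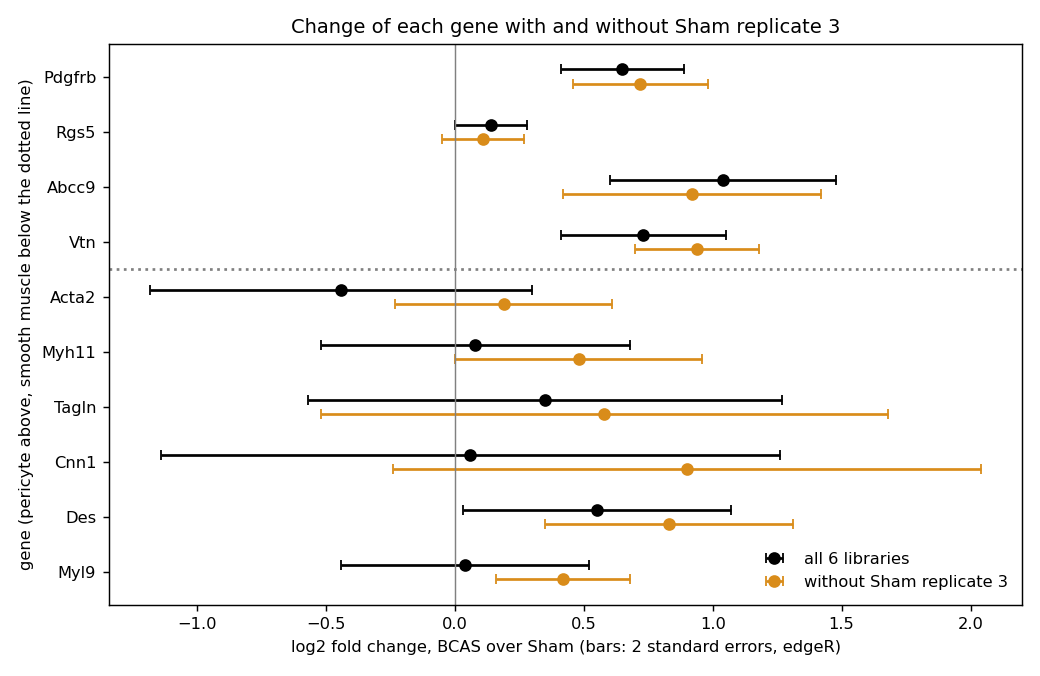
Log2 fold change of BCAS over Sham for each gene (horizontal axis) from edgeR with all 6 libraries (black) and without Sham replicate 3 (orange), with bars of 2 SE. Leaving the library out moved Acta2 from -0.44 to 0.19 and Myl9 from 0.04 to 0.42, while Pdgfrb went from 0.65 to 0.72.

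Tagln, which encodes transgelin, a small actin-bundling protein of smooth muscle, needs a separate reading. It is ENSMUSG00000032085.5, on the minus strand of chromosome 9 from 45929619 to 45936058. Only 9, 9 and 14 counts fell on it in Sham and 17, 8 and 13 in BCAS (0.266, 0.269 and 0.408 CPM, then 0.523, 0.265 and 0.417 CPM). The Sham range lay within the BCAS range, and the log2 fold change was 0.35 (SE 0.46, interval -0.57 to 1.28, edgeR adjusted p = 0.601), or 0.58 without Sham replicate 3 (adjusted p = 0.501).

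In the annotation used for counting, 1349 of the 1988 exonic bases of Tagln (67.9%) lie in exons of other genes. Of these, 1241 belong to Gm48529, a transcript of the opposite strand, and 108 to the end of Pcsk7. Per the file headers the counting used no strand option and left out reads that overlap exons of more than 1 gene, so that 639 bases could add reads without touching a second gene. Among all genes tested, 1.56% had at least 50% of their exonic bases inside exons of other genes. Gm48529 itself held 17, 10 and 6 counts in Sham and 5, 15 and 24 in BCAS. Reads of the 2 strands cannot be told apart where they overlap, and the level of Tagln is uncertain for that reason.

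The coding part is the affected stretch. All 603 of the 603 coding bases of Tagln lie inside 1 exon of Gm48529, chr9:45930112-45932438. The first coding exon, chr9:45931582-45931761 on the minus strand (GRCm38, 180 bases), is shown as an example of sequence that could not be counted for the gene, with the start codon in capitals.
Tagln first coding exon: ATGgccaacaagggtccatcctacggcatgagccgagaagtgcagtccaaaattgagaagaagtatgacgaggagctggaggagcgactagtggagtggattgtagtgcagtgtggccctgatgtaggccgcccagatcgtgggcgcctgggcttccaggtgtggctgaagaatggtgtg

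**Figure D3:**
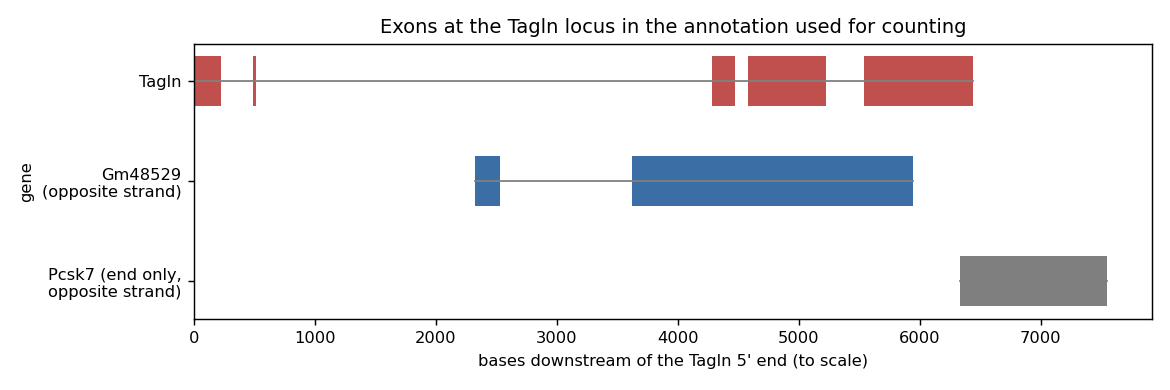
Exons at the Tagln locus in the annotation used for counting, drawn to scale by distance in bases from the 5' end of Tagln (horizontal axis), with 1 line per gene. The 4.3 to 5.9 kilobase stretch that holds the coding exons of Tagln lies under the long exon of Gm48529.

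The other members carried little of this. Exonic bases shared with another gene were 0 for Pdgfrb, Rgs5, Vtn, Acta2, Myh11, Cnn1 and Myl9, and 5.86% for Des. Windows of 100 bases along the transcripts of the 10 genes were also looked up in the transcripts of all other genes. Read in the direction of transcription, 0 of the 10 had an identical window elsewhere. Genes on the opposite strand, such as Gm48529 over Tagln, are not covered by that count.

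Levels of different genes were compared as CPM per kilobase of exon. In Sham the order was Vtn (42.1 ± 9.78), Rgs5 (32.7 ± 1.18), Acta2 (17.9 ± 11.0), Myl9 (15.9 ± 6.51), Pdgfrb (6.43 ± 0.573), Myh11 (2.22 ± 0.936), Abcc9 (1.01 ± 0.178), Des (0.942 ± 0.297), Cnn1 (0.547 ± 0.426) and Tagln (0.158 ± 0.0409; SD, n = 3 throughout). Divided by the 639 bases that lie in no other gene, an alternative added after seeing the data, Tagln was at 0.492 ± 0.127 CPM per kilobase in Sham, near Cnn1. By group means, Vtn and Rgs5 did not differ beyond their spread, nor did Acta2 and Myl9. Neighbours from Abcc9 down to Tagln did not either. Within each Sham library, however, Vtn was above Rgs5, Des above Cnn1 and, over full exon length, Cnn1 above Tagln. The steps from Rgs5 to Acta2, from Myl9 to Pdgfrb, from Pdgfrb to Myh11 and from Myh11 to Abcc9 were each larger than the SD on either side. In BCAS, Vtn reached 69.8 and Pdgfrb 10.1 CPM per kilobase, while Rgs5 stood at 35.9, so that Vtn was well clear of Rgs5. Acta2 stood at 13.2 ± 3.33 and Myl9 at 16.3 ± 1.39 in BCAS, closer together than the SD of Acta2. Without Sham replicate 3, an alternative added after seeing the data, the Sham values were 11.5 for Acta2 and 12.2 for Myl9. By group means and SD, the order of this pair was therefore not settled in either group. Within single libraries, Myl9 was above Acta2 in every BCAS library, while the order differed between Sham libraries.

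Each library was then placed by the mean log2 CPM of its pericyte and of its smooth muscle genes. The pericyte mean was 5.41, 5.44 and 5.51 in Sham and 5.98, 5.98 and 6.30 in BCAS. The BCAS mice were all above the Sham mice, by 0.63 between group means. The smooth muscle mean was 1.97, 1.90 and 2.99 in Sham and 2.74, 1.94 and 2.63 in BCAS, with group means of 2.29 ± 0.61 and 2.44 ± 0.43 (SD, n = 3 each). Here Sham replicate 3 was the highest of the 6 mice and BCAS replicate 2 stayed with the lower Sham pair.

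The contrast between the classes was about as large as its spread and depended most on Sham replicate 3. Smooth muscle minus pericyte, on the log2 scale, was -3.44, -3.54 and -2.52 in Sham and -3.24, -4.04 and -3.67 in BCAS. The group means were -3.17 ± 0.56 in Sham and -3.65 ± 0.40 in BCAS (SD, n = 3 each). They differed by -0.48 with all libraries and by -0.16 without Sham replicate 3. Without that library the smooth muscle mean differed by 0.50 and the pericyte mean by 0.66 between the groups. Leaving out BCAS replicate 2 instead also brought the contrast down, to -0.29, and the range over all single left-out libraries was -0.69 to -0.16. No test was made of this contrast, because its classes were chosen with results of these data known.

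**Figure D4:**
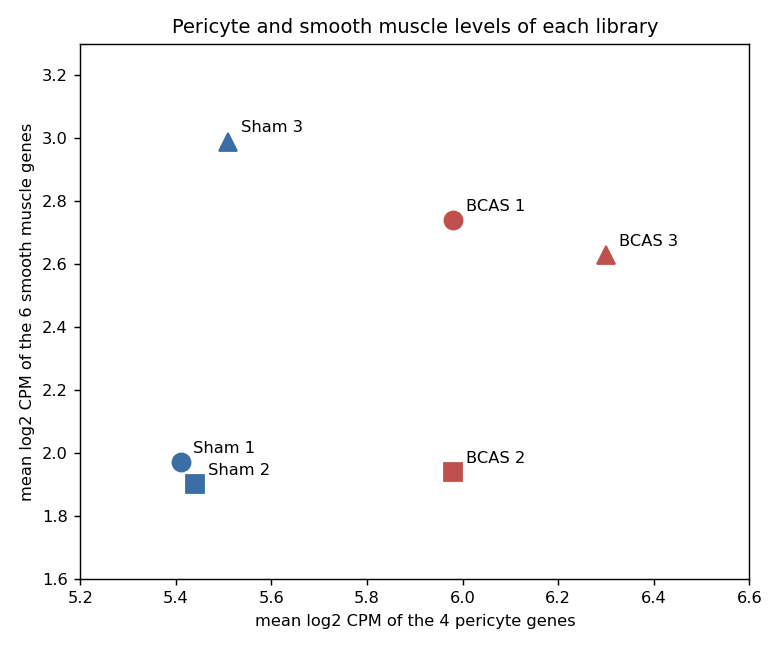
Mean log2 CPM of the 6 smooth muscle genes (vertical axis) against that of the 4 pericyte genes (horizontal axis), 1 point per library. The 3 BCAS libraries lie to the right of the 3 Sham libraries, and on the vertical axis Sham replicate 3, at 2.99, lies above all others.

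Other pericyte markers were taken from a list of 12. Of these 7 were higher in BCAS, 0 were lower and 5 were not called, with a median log2 fold change of 0.60, beside 18.0% of all tested genes called higher. The count was 6 to 9 with single libraries left out. Tbx18, a transcription factor of mural cells, rose most (log2 fold change 1.00, edgeR adjusted p = 0.00506), from 3.96, 2.78 and 4.29 CPM in Sham to 7.33, 7.63 and 7.05 CPM in BCAS. Anpep, the surface peptidase CD13, rose by 0.97 on the log2 scale (adjusted p = 0.00916). Notch3, the receptor through which vessels keep their mural cells and the gene mutated in the hereditary small vessel disease CADASIL, rose by 0.88 (adjusted p = 0.000542). Cspg4, the NG2 proteoglycan that oligodendrocyte precursors also carry, rose by 0.73 (adjusted p = 0.00269). Cd248, or endosialin, rose by 0.63 (adjusted p = 0.0113) and Atp13a5, a transporter gene used as a brain pericyte marker, by 0.52 (adjusted p = 0.00757). Listed markers of fibroblasts (6 of 10) and microglia (10 of 10) were also called higher. The part of other cell types in the rise of these pericyte markers was not tested.

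The other 5 genes of the list did not pass the test in edgeR. Higd1b had a log2 fold change of -0.15, Mcam of -0.00, Foxf2 of 0.48, Ndufa4l2 of 0.49 and Zic1 of 0.57. Zic1 was called higher by DESeq2, without a filter and without BCAS replicate 2, and Foxf2 with counts halved, with library totals and without BCAS replicate 2. Higd1b had only 35 to 63 counts per library, and its interval of 2 SE ran from -0.71 to 0.41.

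The partners of Abcc9, Pdgfrb and Vtn were looked at in turn. The pore subunit that joins SUR2 in mural cells, Kir6.1 (Kcnj8), had 3.57, 4.94 and 5.31 CPM in Sham and 6.86, 6.53 and 10.3 CPM in BCAS. The groups did not overlap, and BCAS replicate 3 was the highest library, as it was for Abcc9 (log2 fold change 0.78, edgeR adjusted p = 0.0314). Abcc8, which encodes the SUR1 subunit used mostly by neurons, was lower (-0.48, adjusted p = 0.0181), and its neuronal pore Kcnj11 did not pass the test (-0.35, adjusted p = 0.0549). None of these 3 results held throughout. Kcnj8 was not called without BCAS replicate 3 or any single Sham replicate, and Abcc8 was not called without Sham replicate 1 or 2. Kcnj11 was called lower by DESeq2, by limma-voom, with RLE factors, without a filter, with the replicate number as a block (a replicate block) and without BCAS replicate 2.

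For the PDGF axis, 2 of 5 genes were higher and 0 lower by edgeR, beside 18.0% and 13.2% of all genes tested. Pdgfb, the ligand that endothelial cells supply to Pdgfrb, had 35.5, 37.7 and 35.6 CPM in Sham and 50.9, 49.7 and 65.6 CPM in BCAS, a log2 fold change of 0.61 (edgeR adjusted p = 0.0042). Pdgfd, a further ligand of the same receptor, had a log2 fold change of 0.88 (adjusted p = 0.0259), but its groups overlapped. It was not called with the replicate block or without BCAS replicate 1, BCAS replicate 3, Sham replicate 1 or Sham replicate 3, which leaves 1 of 5. Pdgfb was called in each of these. Pdgfb and Pdgfrb were both highest in BCAS replicate 3. That library was also the highest BCAS library for 10 of 10 microglial and 7 of 12 endothelial markers, and for 1 of 6 smooth muscle members. A shared top there is therefore not particular to this ligand and receptor.

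Among genes for proteins that bind vitronectin, the urokinase receptor gene and 4 integrin genes were higher, beside 18.0% of all genes tested. Plaur, which encodes that receptor, had 16, 6 and 18 counts in Sham and 133, 162 and 188 in BCAS (log2 fold change 3.70, edgeR adjusted p = 0.000142). The integrin genes Itgb5 (2.34, adjusted p = 1.36e-05), Itgb3 (2.31, adjusted p = 5.74e-05), Itgb1 (0.94, adjusted p = 0.000395) and Itgav (0.55, adjusted p = 0.00909) rose as well. Several of these genes are also used by microglia and macrophages, and the summed level of 10 microglial markers was 392 to 416 CPM in Sham and 2786 to 4594 CPM in BCAS, 10 of 10 being called higher. The part of microglia in the change of these 5 genes was not tested.

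On the side of smooth muscle, 14 of 15 further genes were matched by symbol and tested, and 2 were higher and 0 lower by edgeR, with a median log2 fold change of 0.28. A share of 2 in 14 is near the 18.0% of all genes tested. Smtn, smoothelin, rose by 0.60 (edgeR adjusted p = 0.0341), from 6.17, 6.53 and 8.83 CPM in Sham to 11.1, 9.18 and 12.3 CPM in BCAS. Cald1, caldesmon, which other cells of the vessel wall also contain, rose by 0.53 (adjusted p = 0.0223), from 55.5, 49.7 and 50.4 to 83.3, 56.7 and 84.3 CPM. BCAS replicate 2 was the lowest of its group for both, as for Acta2, Myh11 and Cnn1. These calls were fragile: the count was 0 without BCAS replicate 1, BCAS replicate 3, Sham replicate 1 or Sham replicate 2, and 1 without Sham replicate 3. Pln, phospholamban, had the most negative value of the list (-1.52, adjusted p = 0.0613), with Sham replicate 3 at 70 counts and the other libraries at 6 to 27, and 64.7% of its exonic bases lie in exons of other genes. DESeq2 and edgeR without a filter called it lower.

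**Figure D5:**
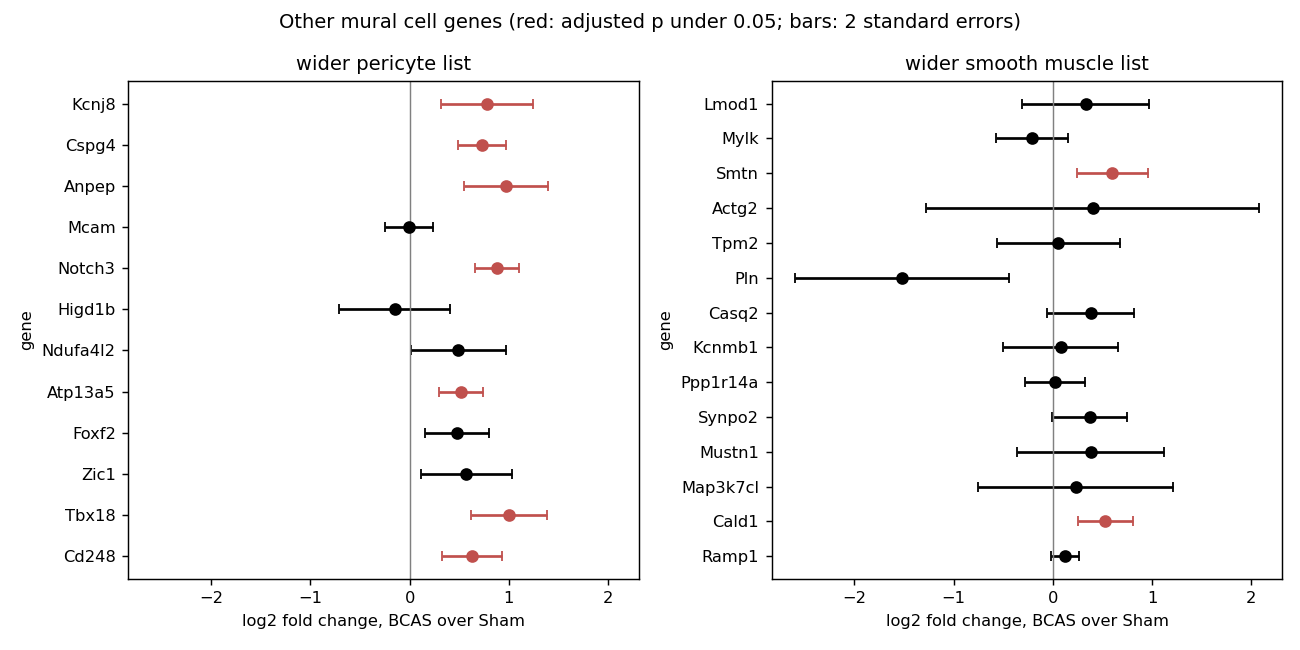
Log2 fold change of BCAS over Sham (horizontal axes) with bars of 2 SE for the 12 further pericyte genes (left) and the 14 further smooth muscle genes (right), red where the edgeR adjusted p was under 0.05. The red points number 7 on the left and 2 on the right, and Pln at -1.52 is the lowest value of both lists.

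Genes that set the contractile state of smooth muscle, 14 in all, included 4 higher and 1 lower and had a median log2 fold change of -0.05, a share of calls close to the 31.3% of all genes tested. Myl12a, a non-muscle myosin light chain gene, rose by 0.85, the endothelin receptor Ednra by 0.72, Rock1 by 0.57 and Rhoa by 0.46 on the log2 scale, and Rock2 was lower at -0.39 (edgeR adjusted p = 0.00623). All but Ednra are transcribed in most cell types. Cacna1c, the most negative of the list at -0.43, did not pass the test in edgeR (adjusted p = 0.0809). It was called lower by DESeq2, without a filter, with the replicate block and without BCAS replicate 1. Of the SRF cofactor list, Klf4, which represses the contractile programme, rose by 0.50 (adjusted p = 0.0346) and Mrtfb was lower at -0.33 (adjusted p = 0.024). Klf4 was not called without a filter, with the replicate block or without BCAS replicate 1, BCAS replicate 2, Sham replicate 1 or Sham replicate 2, and Mrtfb was not called with library totals or without Sham replicate 1 or 2. Srf at -0.13 and Mrtfa at -0.15 did not pass the test, and Myocd, the cofactor most specific to smooth muscle, had too few counts to be tested. In Sham, Cacna1c had a mean of 106.5 CPM and Mrtfb of 206.7 CPM, against 16.9 CPM for Myh11. The part of other cell types in the lower values of Cacna1c and Mrtfb was not tested.

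Promoter sequences were read because SRF acts on smooth muscle genes through the CArG box. RefSeq windows (GRCm38.p6) from 250 bases before the start of a gene to 50 after it were searched on both strands for the CArG box, with and without 1 change to C or G in its A and T core. An exact box was found in 535 of 32851 windows (1.63%), and a box with up to 1 change in 3280 (9.98%). Of the 7 members read, Acta2 and Myl9 held 2 boxes each. Stretches of 30 bases around the boxes are printed below, with the box in capitals and its first base numbered from the gene start.
Acta2 at -84, chr19:34255438-34255467, minus strand: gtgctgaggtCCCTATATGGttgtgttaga
Acta2 at -34, chr19:34255388-34255417, minus strand: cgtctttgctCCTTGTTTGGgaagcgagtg
Myl9 at -161, chr2:156775293-156775322, plus strand: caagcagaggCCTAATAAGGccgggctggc
Myl9 at -99, chr2:156775355-156775384, plus strand: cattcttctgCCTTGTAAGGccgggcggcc

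Only the box of Myl9 at -161 was exact. The windows of Rgs5, Abcc9, Vtn, Cnn1 and Des held 0 of either kind, which says only that these letters are not in the window. Windows for Tagln and Myh11 were not in the table used, and that of Pdgfrb was not read.

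The genes most alike Pdgfrb over the 6 libraries, by Pearson r of log2 CPM among genes with a mean of at least 1 CPM, were Mknk2 (0.999), Tagln2 (0.998), Gm9794 (0.998), Mylip (0.997) and Rnf149 (0.996). For Acta2 they were Oaz1-ps (0.990), Srprb (0.970), Gm16589 (0.970), Gm7591 (0.968) and Pir (0.963). These r are descriptions over 6 points that fall into 2 groups. The Pdgfrb companions were each higher in BCAS, with log2 fold changes from 0.37 to 1.55, while those of Acta2 ran from -0.18 to -0.02 and had their highest value in Sham replicate 3. Both patterns follow from picking genes by their likeness to Pdgfrb or Acta2 in the same libraries.

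Markers of neighbouring cells were measured beside these genes. Of all genes tested 18.0% were higher and 13.2% lower, and of 12 endothelial markers 7 were called higher and 0 lower (median log2 fold change 0.42), with a summed level of 433 to 473 CPM in Sham and 567 to 646 CPM in BCAS. Of 10 fibroblast markers 6 were higher and 0 lower (median 0.78), with sums of 194 to 313 and 346 to 530.1 CPM. The highest Sham sum of these markers, 313 CPM, was that of Sham replicate 3. The endothelial count was 4 without Sham replicate 1, 5 without BCAS replicate 3 or Sham replicate 2 and 10 with library totals, and the fibroblast count ran from 4 without Sham replicate 1 to 8 without a filter or with the replicate block. The markers of hippocampal neurons went the other way, from 1097 to 1195 CPM in Sham to 582 to 812 CPM in BCAS, with 5 of 8 lower and 0 higher. The part of these marker changes in the CPM of the 10 genes and of the further pericyte genes was not tested.

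Transcripts that mark the choroid plexus, a tissue next to the hippocampus, differed between the libraries. The summed level of 6 choroid plexus markers was 71.1 CPM in Sham replicate 3 and 40.9 CPM in BCAS replicate 2, against 991.8 to 5944 CPM in the other 4 mice, and 0 of 6 differed between the groups by edgeR. Sham replicate 3, high in the smooth muscle genes, and BCAS replicate 2, low in them, were thus both low in choroid plexus transcripts. Striated muscle markers summed to 18.6 to 20.8 CPM in Sham and 17.6 to 22.7 CPM in BCAS, with 0 of 7 tested called.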

How the data were processed

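RNA from the right hippocampus of 6 mice was sequenced from NEBNext Ultra libraries, a kit that does not mark strand. Per the labels and file headers, the authors trimmed reads with Trim Galore, aligned them to mm10 with HISAT2 and counted reads per gene with featureCounts. The deposited values are raw counts. The file headers name featureCounts 2.0.3 with GENCODE vM20, the submitters' processing notes 1.6.3. The headers show paired reads counted as single reads without strand, so a pair can add 2 counts.

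Counts were tested with edgeR 4.0.16 (TMM, filterByExpr, quasi-likelihood F test, BCAS against Sham, R 4.3.3) over 18617 genes with Benjamini-Hochberg adjustment. SE is the log2 fold change divided by the square root of F, and intervals are 2 SE either way. CPM means are given ± SD, log2 CPM used a prior count of 2, and overlaps came from the counting annotation in the files. The code was tested on simulated counts. Symbols were matched for 54723 of 54752 IDs. Alternatives were limma-voom (limma 3.58.1), DESeq2 1.42.0, RLE factors, library totals, 2 other filters, halved counts, a replicate block and each library left out.

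Members and gene lists were chosen with earlier results of these data known. Genes named are the 10 members, listed genes past an adjusted p of 0.05 (up to 8 a list), and the 5 most like Pdgfrb and Acta2. The endothelial, fibroblast, neuronal, microglial and astrocyte lists are exceptions, given by counts or sums with no gene named. Higd1b, Mcam, Foxf2, Ndufa4l2, Zic1, Kcnj11, Pln, Cacna1c, Srf, Mrtfa, Myocd, Alb and the haemoglobin genes were named after their values were seen. A listed gene is not reported here.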

Additional observations from a re-analysis of the deposited data

How the results depend on the processing

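Pdgfrb, Abcc9 and Vtn were called higher in all 14 alternatives, with log2 fold changes of 0.52 to 0.73, 0.74 to 1.18 and 0.61 to 0.94. Calls were gained for Rgs5 with library totals (0.21) and for Des without Sham replicate 3 (0.83), and no member was called lower in any alternative. Sham replicate 3 was the highest Sham library for Des, so leaving it out raises that value. The sign turned for 4 smooth muscle genes, none of them called, and the cause was not tested beyond the library left out: Acta2 ran from -0.69 to 0.19 over the left-out libraries, with 0.19 without Sham replicate 3. Without BCAS replicate 1, BCAS replicate 3, Sham replicate 1 and Sham replicate 2, Myh11 was -0.08, -0.01, -0.07 and -0.11, and Cnn1 was -0.19, -0.17, -0.16 and -0.30. Without BCAS replicate 1, Sham replicate 1 and Sham replicate 2, Myl9 was -0.03, -0.15 and -0.11. The highest values, each without Sham replicate 3, were 0.48 for Myh11, 0.90 for Cnn1 and 0.42 for Myl9. With single libraries left out, members past both limits numbered 0 to 1, called genes of the further smooth muscle list 0 to 3, and those of the PDGF, potassium channel, vitronectin and SRF lists 7 to 12, against 12 with all libraries and 7 without Sham replicate 1.

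Replicate numbers did not pair the mice (correlation of same-numbered residuals 0.036, -0.314 and -0.158). With the number as a replicate block, 3 members were higher, 0 lower and 1 past both limits, and the class medians were 0.70 and 0.12. The depth limits Tagln, with 8 to 17 counts per library. For Cnn1, with 18 to 97 counts, halving the counts left the SE at 0.59, against 0.60.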

Other observations

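Irag1, the 1 listed smooth muscle gene with no symbol match, was looked up under its older symbol Mrvi1, an alternative added after seeing the data. It had a log2 fold change of 0.44 (edgeR adjusted p = 0.157). Astrocyte markers, which were in no comparison of vessel genes, were called higher for 6 of 7 genes and lower for 0 by edgeR, beside 18.0% and 13.2% of all genes tested. The count was 5 with the replicate block and without BCAS replicate 1 or any single Sham replicate.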
